A study of Rattus norvegicus with 15 samples.

Results

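The aldo-keto reductase 1b locus of the rat was followed through 15 RNA-seq libraries of primary cortical astrocytes. It was defined by ENSRNOG00000009734, a gene of chromosome 4 picked for its large rise after hydrogen peroxide (H2O2), together with the neighbouring genes whose counts per 1000000 counts (CPM) averaged 1 or more over the 15 libraries. 4 of the 32552 genes listed were members, and 13298 genes passed the same minimum genome-wide. By its log2 difference between H2O2 and Control the lead gene ranked 6 of the 15650 genes tested, 3 of the 854 tested on chromosome 4, and 2 of the 13294 tested with at least 1 CPM. The lead gene had the lowest mean of the 4 members, at 23.5 CPM, and ENSRNOG00000009875, the only other gene of the window, was left out at 0.126 CPM. Since the control and H2O2 libraries chose the lead gene, its rise between these groups is given as a description without a test.

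Astrocytes from the cortices of neonatal Sprague Dawley rats were given sterile water (Control) or 100 µM H2O2 for 30 min. The 3 remaining groups received the same H2O2 exposure and, 24 h later, either unmodified mitochondria (Mitochondria), mitochondria coated with the lipids DOTAP and DOPE (MitoCoat), or RNA extracted from mitochondria and encapsulated in the same lipids (MitoCoat–mRNA). The mitochondria came from rat placenta, and RNA was sequenced 6 h after treatment from 3 randomly selected samples per group. The study calls them biological replicates, but the labels do not say that they were separate cultures, so the p-values measure the spread between these samples, which may in part be technical. No group received mitochondria or RNA without H2O2. Because the identifiers in the files carry no symbols, the astrocyte identity could not be checked against its markers. The labels describe RNA extraction from mitochondria-enriched fractions, whereas the study describes the libraries as astrocyte RNA. Libraries held 35315654 to 46778663 assigned counts (median 41330464).

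Aldo-keto reductases of the 1B family use NADPH to reduce aldehydes and ketones to alcohols. Akr1b1, aldose reductase, converts glucose to sorbitol in the polyol pathway, and its relatives Akr1b8, Akr1b10 and Akr1b7 reduce aliphatic aldehydes, among them the reactive products that form when membrane lipids are oxidised. Members of the family are known targets of the oxidant-sensing transcription factor NRF2 and of AP-1, which bind the antioxidant response element and the TPA response element. The question asked of each treatment was whether it moved the genes of the locus from their H2O2 level back towards the control level.

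The files place the 5 genes of the window side by side on Rnor6.0. ENSRNOG00000008851 lies at chromosome 4, 61550995 to 61573003 (minus strand, 10 exons), ENSRNOG00000009513 at 61706864 to 61720956 (minus strand, 10 exons), and the lead gene ENSRNOG00000009734 at 61771970 to 61828657 (plus strand, 20 exons). They are followed by ENSRNOG00000009875 at 61850348 to 61862526 (plus strand, 10 exons) and ENSRNOG00000010133 at 61912210 to 61940696 (plus strand, 4 exons). No member shares an exon or its span with another gene model.

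The exon lengths mark 3 of these models as relatives. A run of 8 consecutive exons of 168, 117, 78, 123, 107, 82, 84 and 83 bases, 842 bases in all, occurs in 3 of the 32552 gene models: 1 time in ENSRNOG00000009513, 1 time in ENSRNOG00000009875 and 2 times in ENSRNOG00000009734. The 2 copies inside the lead gene span 61774177 to 61782866 and 61817460 to 61826264 and are 34593 bases apart. The count of the lead gene therefore adds reads of both copies and cannot tell them apart. Only reads with a single best position were counted, so reads that fit several copies equally well are missing from every copy.

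**Figure D1:**
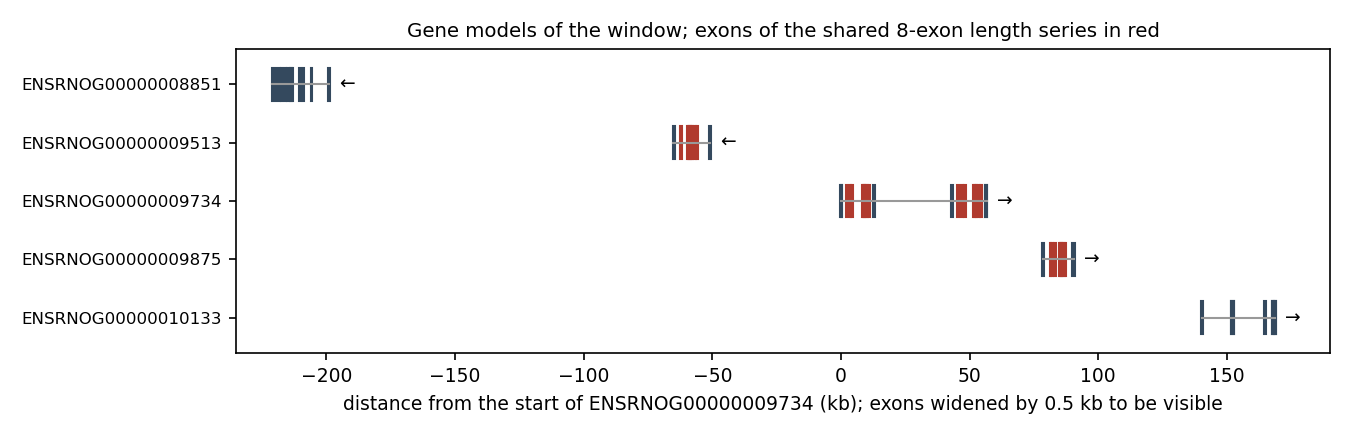
Gene models of the window, drawn by distance in kb from the start of ENSRNOG00000009734, with vertical bars for exons (widened by 0.5 kb) and arrows for the strand. Red exons belong to the run of 8 exon lengths, which appears 1 time in ENSRNOG00000009513, 2 times in ENSRNOG00000009734 and 1 time in ENSRNOG00000009875, and in neither outer gene.

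The RefSeq annotation, which is on the newer build GRCr8, lists the protein-coding genes of this neighbourhood in the order Slc35b4, Akr1b1, Akr1b8, Akr1b10, Akr1b7 and Bpgm, and places pseudogenes of Akr1b1 and Akr1b8 on other chromosomes. Slc35b4 is a nucleotide sugar transporter and Bpgm is bisphosphoglycerate mutase, which sets the bisphosphoglycerate level of red blood cells. The 4 copies of the exon run lie between ENSRNOG00000008851 and ENSRNOG00000010133, and 4 Akr1b genes lie between Slc35b4 and Bpgm. No reference used here pairs the Ensembl identifiers with symbols, so the genes are called by their identifiers, and the fit of the lead gene to Akr1b8 and Akr1b10 rests on position alone.

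The 250 bases before the annotated starts of these 2 genes are shown because their position fits the copies within the lead gene, the gene with the largest rise in the locus. They are taken from RefSeq on GRCr8, plus strand, at chr4:63964171-63964420 for Akr1b8 and chr4:64005382-64005631 for Akr1b10. Capitals would mark a match to the antioxidant response element core TGACNNNGC or to the AP-1 motif TGANTCA on either strand. There is none in these windows.
Akr1b8: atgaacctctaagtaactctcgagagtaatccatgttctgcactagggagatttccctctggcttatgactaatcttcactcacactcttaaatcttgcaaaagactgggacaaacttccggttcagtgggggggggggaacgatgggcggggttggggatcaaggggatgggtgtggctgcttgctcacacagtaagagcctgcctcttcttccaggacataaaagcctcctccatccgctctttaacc
Akr1b10: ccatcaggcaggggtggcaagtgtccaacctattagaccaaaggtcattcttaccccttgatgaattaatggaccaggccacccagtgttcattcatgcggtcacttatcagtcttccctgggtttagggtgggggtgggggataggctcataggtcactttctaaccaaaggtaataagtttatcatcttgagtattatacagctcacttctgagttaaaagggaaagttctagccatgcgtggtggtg
The window of Akr1b7, at chr4:64043720-64043969, held no match either. The promoter reference held no entry for Akr1b1, so its window was not examined. Of 33469 rat promoters, 10.1% held the antioxidant response element core and 6.34% held the AP-1 motif in the same 250 bases, and the 2 motifs can overlap. The absence of these letters says nothing about elements farther away.

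ENSRNOG00000009734 was close to silent in control astrocytes, and its mean was not below the H2O2 mean in any treated group. Its CPM, scaled by TMM library factors, was 1.01, 1.66 and 1.86 in the control libraries (1.51 ± 0.446, mean ± SD, n = 3). After H2O2 alone it was 10.5, 18.5 and 30.9 (20.0 ± 10.3, n = 3), a mean 13.3 times the control mean. Every H2O2 library lay above every control library, with raw counts of 377 to 1256 against 40 to 85.

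With unmodified mitochondria the lead gene measured 21.0, 27.8 and 57.3 CPM (35.4 ± 19.3, n = 3), which was 23.5 times the control mean. With MitoCoat it measured 22.7, 30.0 and 58.9 CPM (37.2 ± 19.2, n = 3), which was 24.7 times the control mean. With MitoCoat–mRNA it measured 19.2, 15.8 and 35.9 CPM (23.6 ± 10.7, n = 3), which was 15.7 times the control mean. The lowest treated library, at 15.8 CPM, was above the highest control library, at 1.86 CPM, whereas the treated groups all overlapped the H2O2 group. For 10.1% of the 15650 genes tested in H2O2 against Control, all 9 treated libraries lay above every control library. In bulk RNA, a change in the number of cells that express a gene and a change in RNA per cell cannot be told apart. The study detected mRNAs in the placental mitochondria fraction, also from rat. These counts cannot tell such delivered RNA apart from astrocyte RNA, and its share was not tested.

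Expressed as a share of the log2 rise from Control to H2O2, the mean level stood at 122.8% in the Mitochondria group, 125.3% in the MitoCoat group and 107.9% in the MitoCoat–mRNA group. A value under 100% would be a move back towards the control, and none of the 3 group means was there. For MitoCoat–mRNA the direction rested on single libraries, since its log2 difference from H2O2 turned from 0.24 to −0.19 without MitoCoat–mRNA replicate 3 and to −0.062 without H2O2 replicate 1. By their means the groups ran in the order Control, H2O2, MitoCoat–mRNA, Mitochondria and MitoCoat. The last step also turned with 1 library, since MitoCoat against Mitochondria went from 0.07 to −0.42 without MitoCoat replicate 3, to −0.20 without Mitochondria replicate 1 and to −0.084 without Mitochondria replicate 2. No neighbouring pair above Control in that order passed the test when replicate numbers were left out of the fit.

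**Figure D2:**
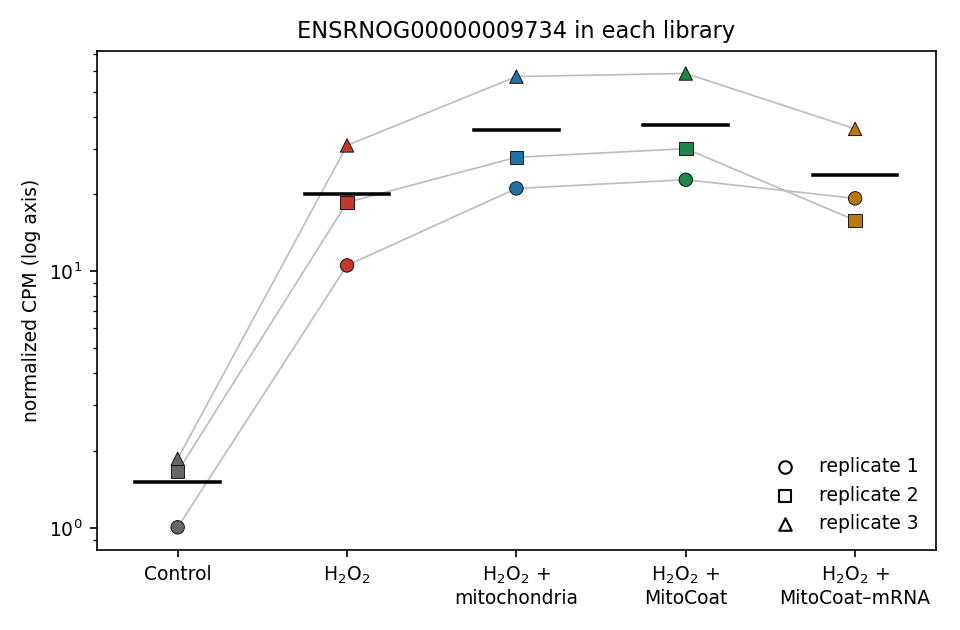
Normalized CPM of ENSRNOG00000009734 on a log axis in each of the 15 libraries, with a bar at each group mean and grey lines joining libraries that carry the same replicate number. Control libraries sit between 1.01 and 1.86 CPM, libraries exposed to H2O2 between 10.5 and 58.9 CPM, and replicate 3 is the highest in all 5 groups.

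The spread within each group followed the replicate number. Replicate 3 was the highest library in all 5 groups, and replicate 1 was the lowest in 4 groups, the exception being MitoCoat–mRNA, where replicate 2 was lowest. The highest library was 1.85 times the lowest in Control, 2.94 times in H2O2, 2.73 times in the Mitochondria group, 2.60 times in the MitoCoat group and 2.27 times in the MitoCoat–mRNA group. The labels do not say what libraries of one number share.

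Fitted over all genes with the edgeR quasi-likelihood test, unmodified mitochondria against H2O2 gave a log2 difference of 0.82 for the lead gene (SE 0.40, 95% confidence interval −0.07 to 1.71, adjusted p = 0.418). Same-numbered libraries deviated together in this comparison, and with the replicate number as a block the difference was 0.81 (SE 0.119, interval 0.57 to 1.06, adjusted p = 1.81e-05 by the same edgeR test). The 3 same-numbered ratios of Mitochondria to H2O2 were 2.00, 1.499 and 1.85. With the block and 1 replicate number left out at a time, the difference ranged from 0.75 to 0.94 and passed the threshold in 3 of 3 fits. The H2O2 libraries had entered the choice of this gene for its high level in them, and the shift measured here was a further rise.

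MitoCoat against H2O2 gave a log2 difference of 0.89 for the lead gene in the edgeR test (SE 0.402, interval −0.01 to 1.79, adjusted p = 0.344). All 3 same-numbered ratios were above 1, at 2.16, 1.62 and 1.91. MitoCoat–mRNA against H2O2 gave 0.24 in the same edgeR test (SE 0.382, interval −0.62 to 1.10, adjusted p = 1.0), with same-numbered ratios of 1.83, 0.852 and 1.16. With the replicate block, MitoCoat against H2O2 gave 0.90 (SE 0.110, adjusted p = 0.00226, edgeR). That call was lost without replicate 2 (1.01, adjusted p = 0.0745, edgeR). Its same-numbered correlations across genes were 0.0823, 0.216 and −0.0637 for numbers 1, 2 and 3, not all above the 0.1 set for pairing. The 3 comparisons against H2O2 share its libraries and are not independent of each other.

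The treated groups were also compared with each other, which uses no library of the Control and H2O2 groups whose contrast picked the lead gene. The level minimum, however, was a mean over all 15 libraries. MitoCoat and unmodified mitochondria gave nearly equal levels of ENSRNOG00000009734, with a log2 difference of 0.07 (SE 0.395, interval −0.82 to 0.95, adjusted p = 0.988, edgeR). With the replicate block the interval narrowed to −0.12 to 0.29 around a difference of 0.08 (adjusted p = 0.838, edgeR), and the same-numbered ratios were 1.08, 1.08 and 1.03.

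Unmodified mitochondria against MitoCoat–mRNA gave a log2 difference of 0.59 for the lead gene (SE 0.369, interval −0.23 to 1.41, adjusted p = 0.576, edgeR). Without Mitochondria replicate 3 the difference fell to 0.05, and without MitoCoat–mRNA replicate 3 it rose to 1.02. With all libraries and the replicate block it was 0.55 (SE 0.121, interval 0.29 to 0.81, adjusted p = 0.0124, edgeR), and all 3 same-numbered ratios were above 1, at 1.09, 1.76 and 1.60. The blocked call was lost when replicate 2 was left out (0.42, adjusted p = 0.103, edgeR) and held without replicate 1 or 3. MitoCoat against MitoCoat–mRNA gave 0.65 (SE 0.365, interval −0.17 to 1.46, adjusted p = 0.469, edgeR), with same-numbered ratios of 1.18, 1.90 and 1.64. Of the 3 treatments, MitoCoat–mRNA had the smallest estimated departure from the H2O2 level.

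**Figure D3:**
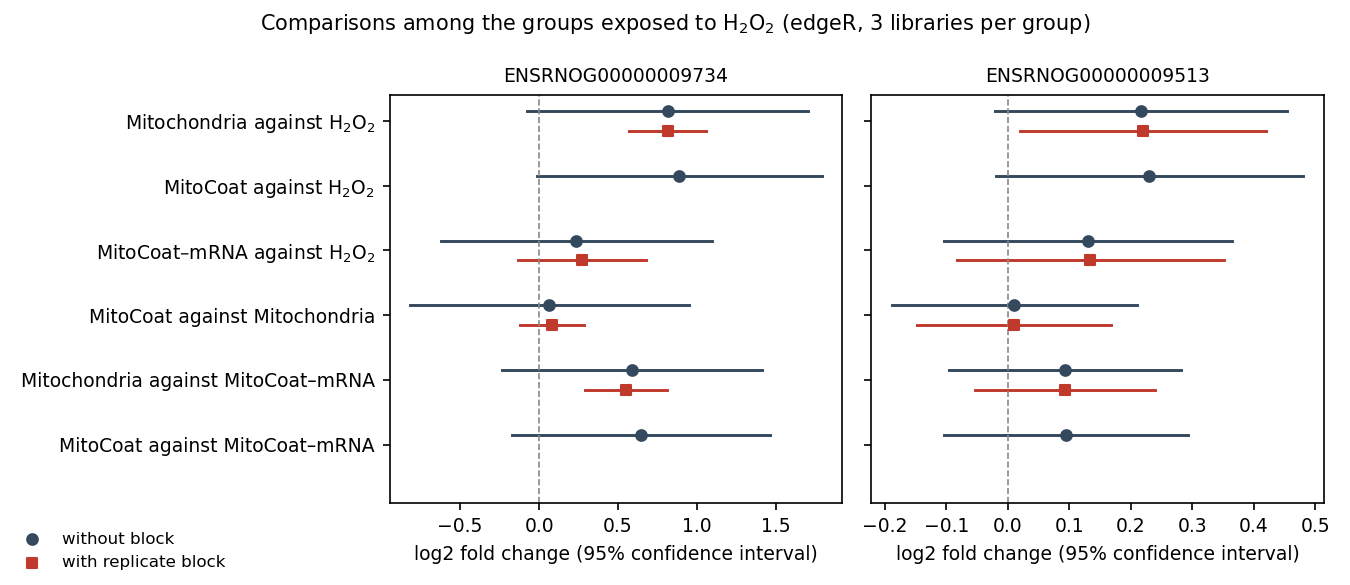
Log2 fold changes with 95% confidence intervals for ENSRNOG00000009734 (left) and ENSRNOG00000009513 (right) in the 6 comparisons among groups exposed to H2O2, fitted with edgeR on 3 libraries per group without a block (circles) and, for the 4 comparisons in which same-numbered libraries deviated together, with the replicate number as a block (squares). For ENSRNOG00000009734 the block leaves the estimates in place, as in 0.82 and 0.81 for Mitochondria against H2O2, and shortens the intervals.

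ENSRNOG00000009513, the member with a single copy of the exon run, was abundant in control astrocytes and rose after H2O2. Its CPM was 152.1, 156.0 and 159.6 in Control (156 ± 3.75, n = 3) and 360.3, 410.7 and 459.1 after H2O2 (410 ± 49.4, n = 3). The groups did not overlap, as held for 13.2% of all genes tested in the higher direction, and the H2O2 mean was 2.63 times the control mean. The log2 difference was 1.41 (SE 0.103, adjusted p = 0.000680, edgeR), and it stayed between 1.32 and 1.49 whichever library was left out.

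Of the 3 members other than the lead gene, 1 passed the adjusted p threshold of 0.05 in H2O2 against Control (edgeR), ENSRNOG00000009513, which was higher. Over the 15650 genes tested, 7.19% were called and 2.97% were called higher. The median log2 difference over all genes tested was within 0.0113 of 0 in each of the 7 comparisons.

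The mean of ENSRNOG00000009513 likewise did not move back towards the control under any treatment. It measured 476.7, 445.5 and 513.1 CPM with unmodified mitochondria (478 ± 33.8, n = 3), 459.4, 468.7 and 523.0 with MitoCoat (484 ± 34.4, n = 3), and 462.1, 413.1 and 474.5 with MitoCoat–mRNA (450 ± 32.5, n = 3). These means were 3.07, 3.10 and 2.89 times the control mean. All 9 treated libraries were above every control library, as for 10.1% of genes, and the MitoCoat libraries, from 459.4 CPM, began just above the highest H2O2 library, at 459.1 CPM. Higher groups without overlap were found for 11.2% of all genes in that comparison.

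Against H2O2, the log2 difference of ENSRNOG00000009513 was 0.22 with unmodified mitochondria (SE 0.107, adjusted p = 0.425, edgeR). It was 0.23 with MitoCoat (SE 0.112, adjusted p = 0.39, edgeR) and 0.13 with MitoCoat–mRNA (SE 0.104, adjusted p = 1.0, edgeR). The treated groups lay closer still to each other, with log2 differences of 0.01 for MitoCoat against Mitochondria and 0.09 for either against MitoCoat–mRNA. None of these passed the test, with or without the block.

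**Figure D4:**
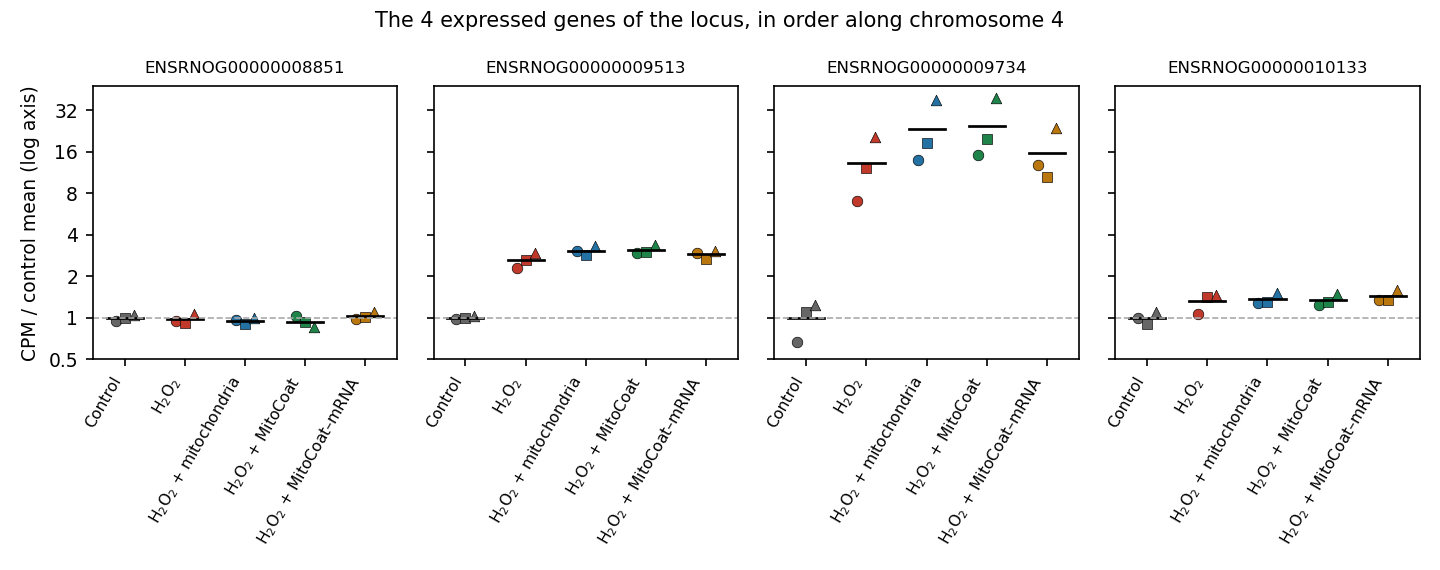
CPM of the 4 members in each library divided by the control mean of that gene, on a log axis, in chromosomal order from left to right, with a bar at each group mean (circle, square and triangle for replicates 1, 2 and 3). The inner genes ENSRNOG00000009513 and ENSRNOG00000009734 have H2O2 means of 2.63 and 13.3 times the control mean, and neither mean moves back under a treatment.

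The outer members carried no copy of the exon run. ENSRNOG00000010133, with 4 exons, measured 62.9, 56.5 and 69.0 CPM in Control (62.8 ± 6.26, n = 3) and 66.6, 89.7 and 92.1 CPM after H2O2 (82.8 ± 14.1, n = 3). The groups overlapped at the lowest H2O2 library. The log2 difference was 0.41 (SE 0.135, adjusted p = 0.116, edgeR). This gene passed with the DESeq2 Wald test (0.40, adjusted p = 0.0441) and in edgeR without H2O2 replicate 1 (0.54, adjusted p = 0.0267).

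Under treatment ENSRNOG00000010133 measured 80.8, 81.9 and 94.9 CPM with unmodified mitochondria, 78.2, 81.8 and 93.5 with MitoCoat, and 85.1, 84.2 and 100.2 with MitoCoat–mRNA. The 9 treated libraries lay above every control library, as for 10.1% of genes. Against H2O2 the log2 differences were 0.05, 0.02 and 0.11 in that order, and none passed the test.

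ENSRNOG00000008851, at the other edge, had overlapping ranges in all 5 groups. Its CPM ranged from 62.9 to 69.7 in Control (66.3 ± 3.40, n = 3) and from 60.7 to 70.8 after H2O2 (64.7 ± 5.43, n = 3). The log2 difference was −0.03 (SE 0.0891, adjusted p = 0.893, edgeR). Its mean was 63.2 ± 3.08 in the Mitochondria group, 62.3 ± 6.02 in the MitoCoat group and 68.5 ± 4.31 in the MitoCoat–mRNA group (SD, n = 3 each).

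In each of the 6 comparisons among groups exposed to H2O2, 0 of the 4 members passed the edgeR test without the block, 0 had an unadjusted p under 0.05, and 0 passed with DESeq2. Over all genes tested, an unadjusted p under 0.05 was found for 2.99 to 14.9% in these comparisons, and DESeq2 called 0.0 to 5.57%. The share called by edgeR was 3.59% for Mitochondria against H2O2, 3.05% for MitoCoat against H2O2, 0.0% for MitoCoat–mRNA against H2O2, 0.0% for MitoCoat against Mitochondria, 3.56% for Mitochondria against MitoCoat–mRNA and 2.98% for MitoCoat against MitoCoat–mRNA. For these counts of members, the block was read in the 4 comparisons in which all same-numbered correlations exceeded 0.1. With it, the lead gene was the 1 member called in Mitochondria against H2O2 and in Mitochondria against MitoCoat–mRNA, where 7.96% and 7.33% of genes were called. In MitoCoat–mRNA against H2O2 and MitoCoat against Mitochondria it called 0 members, with 0.0% and 0.0318% of genes called.

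ENSRNOG00000009875, which holds the remaining copy of the run, had 0 to 14 counts per library and was not compared. ENSRNOG00000027433, beyond the window at chromosome 4, 62019970 to 62030874, shares 7 of the 8 exon lengths in a row and had 0 to 8 counts. Of the 4 copies of the run, those in ENSRNOG00000009513 and ENSRNOG00000009734 thus carried nearly all counts in these astrocytes.

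Per kilobase of exon, the lead gene remained a minor transcript beside ENSRNOG00000009513 in every group. The lead gene had an RPKM (CPM divided by the exonic length in kilobases) of 0.610 in Control, 8.09 after H2O2, 14.3 in the Mitochondria group, 15.1 in the MitoCoat group and 9.55 in the MitoCoat–mRNA group. ENSRNOG00000009513 had 116.5, 306.5, 357.6, 361.5 and 336.3 RPKM in the same order. The length of the lead gene adds up the exons of both copies, so its RPKM is an average over them.

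As a percentage of the RPKM of ENSRNOG00000009513 in the same library, the lead gene was at 0.521 ± 0.144% in Control and 2.56 ± 1.04% after H2O2. It was at 3.94 ± 1.89% in the Mitochondria group, 4.08 ± 1.79% in the MitoCoat group and 2.80 ± 1.12% in the MitoCoat–mRNA group (SD, n = 3 each). The ranges of the 4 groups exposed to H2O2 overlapped. This ratio is not affected by library scaling.

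**Figure D5:**
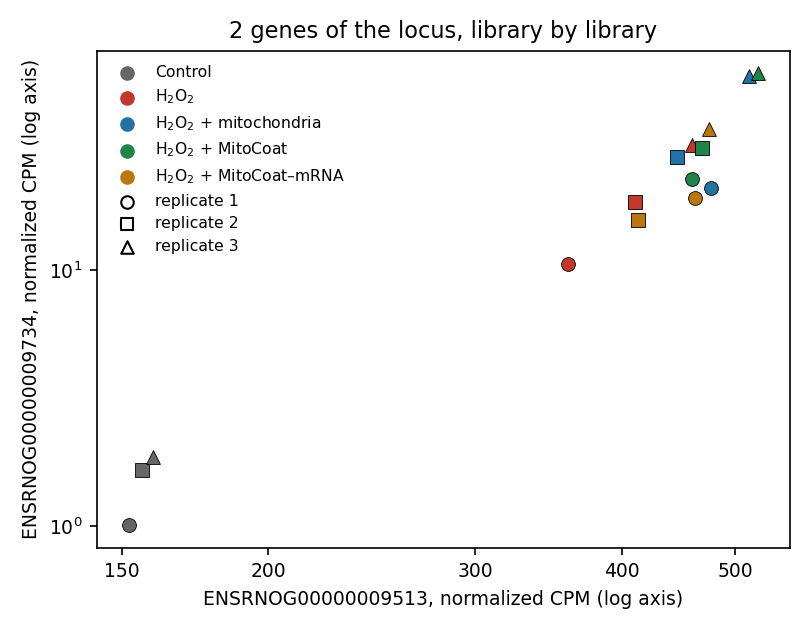
Normalized CPM of ENSRNOG00000009734 (vertical) against ENSRNOG00000009513 (horizontal) on log axes, 1 point per library, with colour for the group and shape for the replicate number. Control libraries lie apart at 152.1 to 159.6 CPM on the horizontal axis, and among exposed libraries the replicate 3 points are the highest in each group.

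Among the 12 libraries exposed to H2O2, the 2 genes whose log2 CPM followed the lead gene most closely were on other chromosomes. The Pearson correlation was 0.961 for ENSRNOG00000007456 (chromosome 5, 29538380 to 29562773) and 0.954 for ENSRNOG00000032626 (chromosome 8, 5676665 to 5698579). After the group means were removed they were 0.948 and 0.939. Within the locus, ENSRNOG00000009513 had a correlation of 0.896 and rank 15 of 13297 genes, ENSRNOG00000010133 had 0.754 and rank 145, and ENSRNOG00000008851 had −0.0604. After the group means were removed these 3 values were 0.878, 0.919 and 0.167. Over all 15 libraries, ENSRNOG00000009513 had 0.977, above ENSRNOG00000032626 at 0.972 and ENSRNOG00000007456 at 0.573. The points share replicate numbers and groups, so these values are descriptions.

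The 2 genes on other chromosomes had the following levels. ENSRNOG00000007456 measured 42.3 ± 1.83 CPM in Control, 42.3 ± 8.59 after H2O2, 55.8 ± 19.2 in the Mitochondria group, 54.3 ± 8.98 in the MitoCoat group and 44.4 ± 6.53 in the MitoCoat–mRNA group (SD, n = 3 each). ENSRNOG00000032626 measured 1.15 ± 0.206, 3.59 ± 1.19, 6.2 ± 3.49, 5.92 ± 1.72 and 4.56 ± 1.76 CPM in the same order. Its log2 difference between H2O2 and Control was 1.65 (adjusted p = 0.0165, edgeR), against 0.01 for ENSRNOG00000007456 (adjusted p = 0.976, edgeR).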

How the data were processed

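Reads had been trimmed by the authors (Trimmomatic 0.36), mapped to Rnor 6.0 with Ensembl annotation (STAR 2.5.2b) and counted over exons where uniquely mapped (featureCounts, Subread 1.5.2). The deposited values are raw counts for 32552 genes in each of 15 libraries. A series-level table repeated 1 library and was not used. Of counts from 1 to 20, 93.4 to 97.7% were even in each library, and dividing all counts by 2 was added as an alternative after the data were seen. The study describes the counting as strand-specific when applicable, without saying whether that held for these libraries.

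Groups and replicate numbers came from the sample titles. Each comparison was fitted on its own 6 libraries with the edgeR (4.0.16) quasi-likelihood test in R (4.3.3), after filterByExpr and TMM scaling, with Benjamini-Hochberg adjustment over all genes tested. CPM used TMM factors, and log2 CPM for correlations used a prior count of 2. Confidence intervals are at 95%. Alternatives were DESeq2 (1.42.0), other scaling and filters, each library left out, and the replicate number as a block. The fits were tested on simulated data.

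Replicate numbers were treated as pairs where deviations from group means correlated above 0.1 across genes for all 3 numbers. This held for Mitochondria against H2O2 (0.219 to 0.264), MitoCoat–mRNA against H2O2 (0.109 to 0.326), MitoCoat against Mitochondria (0.173 to 0.219) and Mitochondria against MitoCoat–mRNA (0.149 to 0.264). It did not hold for H2O2 against Control (0.0731 to 0.322), MitoCoat against H2O2 (−0.0637 to 0.216) or MitoCoat against MitoCoat–mRNA (0.0806 to 0.103).

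The members and lists were chosen with earlier results of these data known. The named genes are the members, the gene outside the level minimum, models that share the exon run, and the 2 genes most correlated with the lead gene. Marker and pathway lists written as symbols could not be applied, since 0 identifiers matched a symbol. No libraries were copies: replicate pairs had a chi-square per degree of freedom of 10.63 to 59.68.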

Additional observations from a re-analysis of the deposited data

How the results depend on the processing

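The call of ENSRNOG00000009513 after H2O2, and positive log2 differences of ENSRNOG00000009734 and ENSRNOG00000009513 against H2O2 in all 3 treated groups, held under every alternative fit that kept all libraries (scaling, filters, counts divided by 2, DESeq2 and the replicate block). The replicate block turned the log2 difference of the lead gene into a call in Mitochondria against H2O2 (0.81), MitoCoat against H2O2 (0.90, adjusted p = 0.00226, edgeR, where 5.88% of genes were called) and Mitochondria against MitoCoat–mRNA (0.55), which made 1 member called in each. For MitoCoat against H2O2 the same-numbered correlations were 0.0823, 0.216 and −0.0637, not all above 0.1. The blocked call was lost without replicate 2 (adjusted p = 0.0745, edgeR). The block changed no other call of a member.

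With 1 library left out at a time, the log2 difference of the lead gene ranged from 3.28 to 4.04 in H2O2 against Control, 0.29 to 1.28 in Mitochondria against H2O2, 0.38 to 1.34 in MitoCoat against H2O2, −0.19 to 0.69 in MitoCoat–mRNA against H2O2, −0.42 to 0.61 in MitoCoat against Mitochondria, 0.05 to 1.02 in Mitochondria against MitoCoat–mRNA and 0.16 to 1.09 in MitoCoat against MitoCoat–mRNA. Replicate 3 of one group or the other set both ends of each range, except that H2O2 replicate 1 set the highest value against Control. The cause was not tested. Leaving aside the lead gene, which this contrast chose, ENSRNOG00000009513 was called in H2O2 against Control whichever library was left out. ENSRNOG00000010133 was called only without H2O2 replicate 1, and ENSRNOG00000008851 never. In these fits 2.34 to 7.31% of all genes were called. In the other 6 comparisons 0 members were called with 1 library left out, where 0.0 to 3.9% of all genes were called. With the block and 1 number left out, the lead gene gave 0.75, 0.94 and 0.78 without replicates 1, 2 and 3 in Mitochondria against H2O2, 0.81 to 1.01 in MitoCoat against H2O2 (0.89 without replicate 3), 0.42 to 0.74 in Mitochondria against MitoCoat–mRNA (0.48 without replicate 3), 0.48 to 0.80 in MitoCoat against MitoCoat–mRNA, where it passed without replicate 1 only (2 members called, with 19.5% of all genes called), 0.00 to 0.52 in MitoCoat–mRNA against H2O2, 0.08 to 0.11 in MitoCoat against Mitochondria and 3.46 to 3.79 in H2O2 against Control. Without replicate 1 the blocked fit also called ENSRNOG00000010133 in H2O2 against Control (0.55, adjusted p = 0.000224, edgeR, with 24.5% of all genes called), and ENSRNOG00000008851 was the other member called in MitoCoat against MitoCoat–mRNA (−0.27, adjusted p = 0.0326, edgeR).

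Differences near 0 changed sign with 1 library left out, and with the block and 1 number left out. For ENSRNOG00000008851 the range was −0.097 to 0.012 in H2O2 against Control (0.012 with the block without replicate 2), −0.079 to 0.036 in Mitochondria against H2O2 (0.0093 with the block without replicate 3), −0.15 to 0.0010 in MitoCoat against H2O2 (0.076 likewise) and −0.0995 to 0.045 in MitoCoat against Mitochondria (0.070 likewise). For ENSRNOG00000009513 it was −0.041 to 0.069 in MitoCoat against Mitochondria (−0.013 with the block without replicate 2). For ENSRNOG00000010133 it was −0.076 to 0.14, −0.12 to 0.096 and −0.014 to 0.20 for Mitochondria, MitoCoat and MitoCoat–mRNA against H2O2 (−0.040 and −0.066 with the block without replicate 1 in the first 2), −0.099 to 0.054 in MitoCoat against Mitochondria, −0.14 to 0.021 in Mitochondria against MitoCoat–mRNA and −0.17 to 0.0016 in MitoCoat against MitoCoat–mRNA.

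The share of genes called moved by more than 1.5 times between fits. Over all of them, the block with 1 number left out included, it ran from 2.34 to 24.5% in H2O2 against Control, 1.59 to 8.86% in Mitochondria against H2O2, 0.244 to 9.15% in MitoCoat against H2O2, 0.0 to 0.326% in MitoCoat–mRNA against H2O2, 0.0 to 3.6% in MitoCoat against Mitochondria, 1.69 to 10.6% in Mitochondria against MitoCoat–mRNA and 1.01 to 19.5% in MitoCoat against MitoCoat–mRNA.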

Other observations

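The first 4 exon lengths of the run recur, without the rest, in 11 further gene models, all on chromosome 17 between 69365453 and 69862110. These models were picked out after their values had been seen. 3 of them had a mean of at least 1 CPM. Of the 4 tested in H2O2 against Control, 0 passed the edgeR test and 1 had an unadjusted p under 0.05, and DESeq2 called 0, where 7.19%, 22.4% and 11.4% of all genes did so. Of the 5 tested in each other comparison, 0 passed in edgeR and 0 had an unadjusted p under 0.05, against 0.0 to 3.59% and 2.99 to 14.9% of all genes.

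ENSRNOG00000017165, at chromosome 17, 69365453 to 69379947, was the 1 such model called with the replicate block in H2O2 against Control (log2 difference 0.69, adjusted p = 0.0328, edgeR), where 9.45% of all genes were called. Its log2 difference without the block was 0.68 (SE 0.284, adjusted p = 0.199, edgeR). It measured 4.63 ± 1.37 CPM in Control, 7.36 ± 1.96 after H2O2, 7.25 ± 2.55 with unmodified mitochondria, 8.45 ± 0.560 in the MitoCoat group and 7.69 ± 2.37 in the MitoCoat–mRNA group (SD, n = 3 each). Same-numbered correlations in that comparison were 0.311, 0.0731 and 0.322 for numbers 1, 2 and 3, so number 2 missed the 0.1 set for pairing.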
